A study of Bos taurus with 12 samples.

Results

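The antioxidant, glutathione and metallothionein genes of the cattle oocyte were described across 12 Affymetrix bovine arrays. The members are the genes whose symbol in the array annotation names a glutathione peroxidase, peroxiredoxin, thioredoxin-family protein, superoxide dismutase, glutathione transferase, glutaredoxin, metallothionein, NQO quinone reductase, haem oxygenase, SELENO selenoprotein or methionine sulfoxide reductase, together with catalase (CAT), GSR, GSS, GCLC, GCLM and SRXN1. This rule, which uses no measured value, gave 62 genes of 9155 with a probe set. They had 82 probe sets. For the 12 genes with more than 1, the probe set with the highest mean over the 12 arrays was used. Of the 62, 55 passed the filter on low values, a mean above 5.57 log2 units, and were tested; the other 7 (GPX2, GPX3, HMOX2, MT2A, SELENOM, SELENON and TXNRD3) are given as values only. For 8 of the 55 (GPX1, GSTK1, GSTO1, HMOX1, MSRA, MT1A, SELENOS and TXN2) the mean of the 9 arrays with an oocyte profile, defined below, was under that value, so they passed the filter through the other 3 arrays.

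The groups, with 3 arrays each, were metaphase II (MII) oocytes of prepubertal heifers, MII oocytes of adult cows, germinal vesicle (GV) oocytes of prepubertal heifers and GV oocytes of adult cows. All donors were Japanese Black cattle, the heifers 9 to 12 months old, and all oocytes came from follicles of 2 to 8 mm. GV oocytes were collected straight from the follicle, still in the first meiotic prophase. MII oocytes had matured in vitro inside their cumulus layers for 20 to 22 h, and were picked by their first polar body. Adult ovaries were from an abattoir and heifer ovaries were removed by spaying on farms, so donor age and the source of the ovaries cannot be told apart. Each array held the amplified RNA of a pool of 50 oocytes stripped of cumulus cells with hyaluronidase. The labels call the pools biological replicates without naming animals or days. Values are log2 signals of the MAS5 method, and in each group they are given in the order of replicates 1, 2 and 3.

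Oocytes rely on these systems while they respire, store maternal mRNA and later unpack sperm chromatin. Superoxide dismutases turn superoxide into hydrogen peroxide, which catalase, glutathione peroxidases and peroxiredoxins reduce to water. Peroxiredoxins are recharged by thioredoxin, and glutathione peroxidases by glutathione, a tripeptide that accumulates in mammalian oocytes during maturation. Metallothioneins are small cysteine-rich proteins that bind zinc and copper, and glutathione transferases couple glutathione to reactive compounds or, in some members, reduce peroxides. Maturing oocytes make little new mRNA and draw on stored transcripts.

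Of the 12 arrays, 9 carried an oocyte profile and 3 did not, and each of the 3 lies in a different group. The median of the 9 measured oocyte-specific genes, of 18 listed, lay 6.06 to 8.70 log2 units above the array median on the 9 arrays. It lay at 0.03 on MII prepubertal replicate 1, -0.55 on GV prepubertal replicate 1 and 0.89 on GV adult replicate 1. BMP15, a growth factor secreted by oocytes, read 6.55, 7.08 and 6.47 on those 3 arrays, and between 14.21 and 15.10 on the others. All 9 oocyte genes were lower on each of the 3 than on any of the 9. The cumulus and granulosa list stood 2.32 (MII) and 1.48 (GV) above the array median on the prepubertal replicate 1 arrays, against -1.15 to 0.60 on the 9, and the theca and stroma list 2.77 and 1.78, against -1.33 to 0.38. The tissue label was therefore borne out on 9 arrays, and each comparison is given over all 12 arrays and over these 9. The 9 comprise 2 MII prepubertal, 3 MII adult, 2 GV prepubertal and 2 GV adult arrays. In pooled RNA, fewer cells of a type and less RNA per cell cannot be told apart.

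Over the 9 arrays the SDs of the tested members ran from 0.33 to 3.49 log2 units, and the heat map shows all members by array. Their median was 1.42, against 1.61 for all 14409 tested probe sets, and 16 members (29.1%) had an SD under 1, against 18.7% of all. The 5 steadiest were SOD1 (SD 0.33), TXNL1 (0.36), PRDX4 (0.47), SELENOP (0.48) and PRDX6 (0.49), and the widest was GSTO1 (3.49). Another tested TXNL1 probe set ran from 8.19 to 13.13 over the 9 arrays. Other tested PRDX6 probe sets ran from 6.73 to 10.23 and from 2.22 to 8.82 there. SOD1, the copper- and zinc-dependent superoxide dismutase of the cytosol, read 12.47, 12.83 and 12.91 in MII prepubertal arrays and 12.21, 12.88 and 13.04 in MII adult arrays, against 13.03, 12.13 and 12.86 in GV prepubertal arrays and 5.45, 12.89 and 12.95 in GV adult arrays. On every array but GV adult replicate 1 it kept within 12.13 to 13.04.

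**Figure D1:**
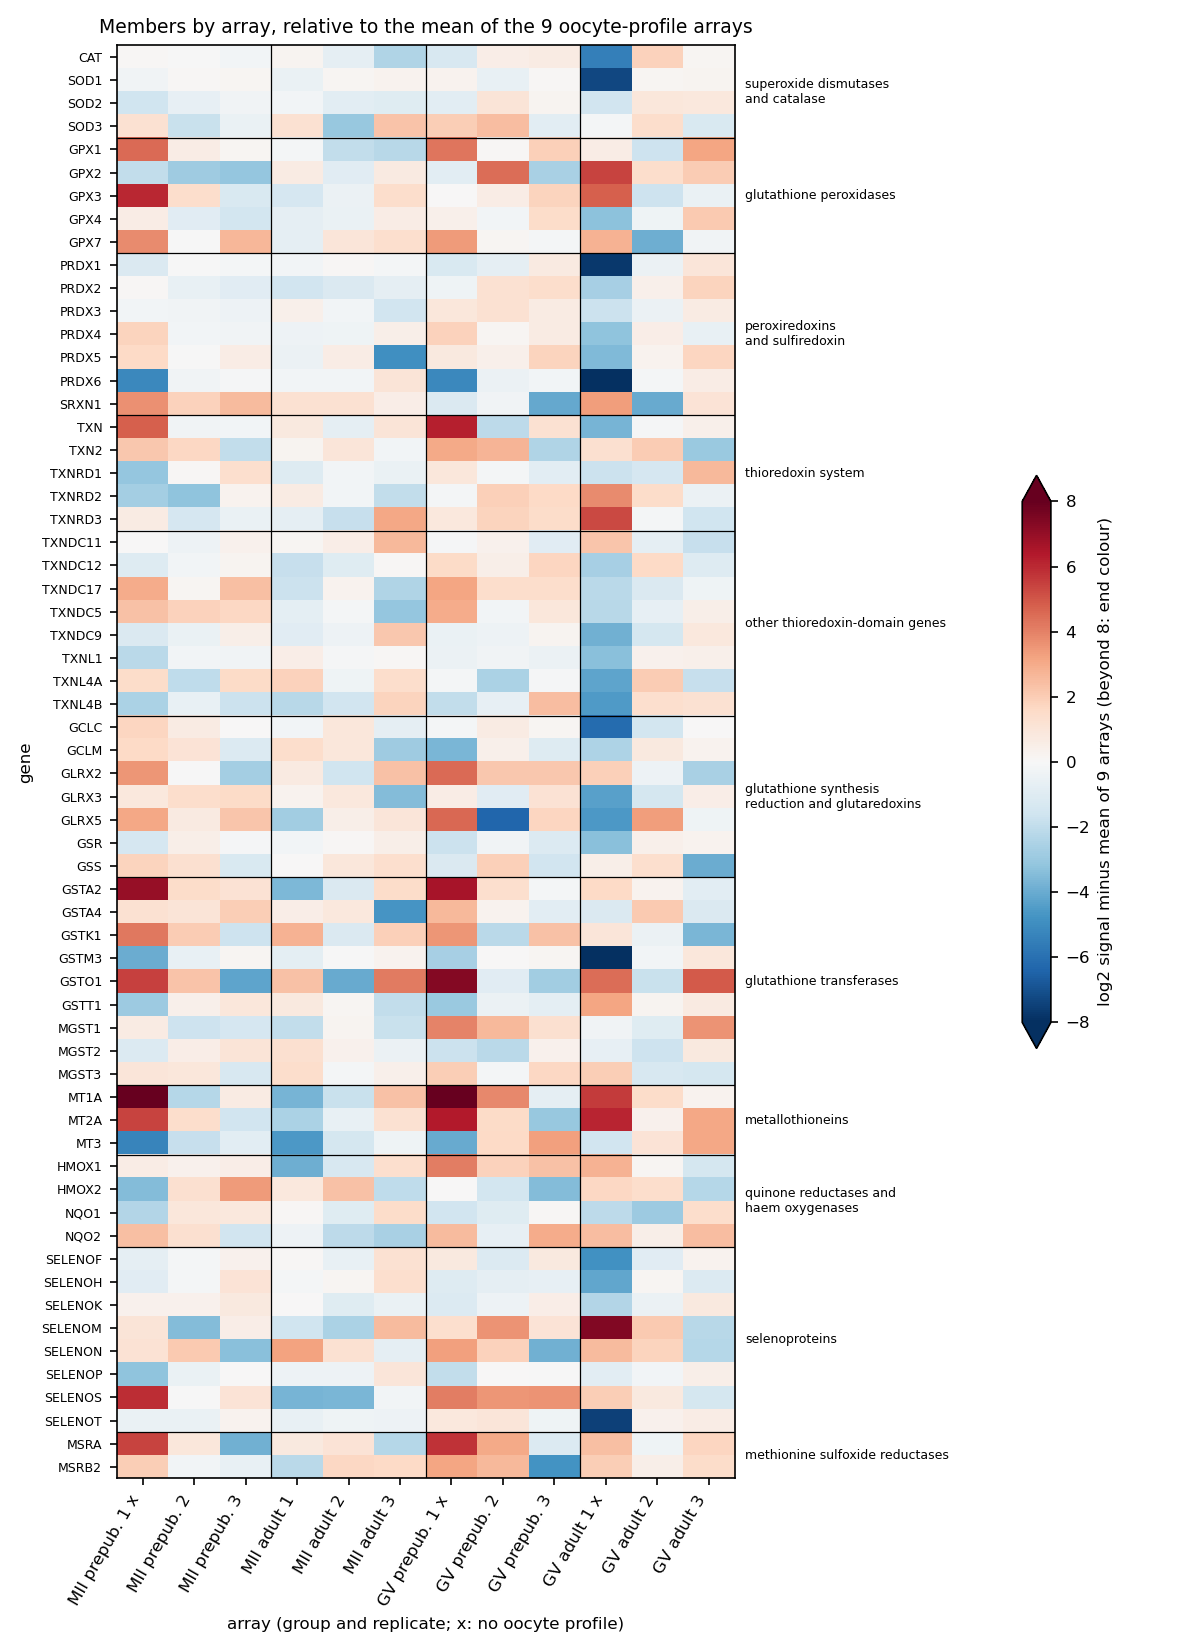
Log2 signal of the 62 members (rows, by role) on the 12 arrays (columns, by group; x marks the 3 arrays without an oocyte profile), as the difference from each gene's mean over the 9 oocyte-profile arrays; differences beyond 8 take the end colour. MT1A, MT2A and GSTA2 stand out in red on the MII and GV prepubertal replicate 1 arrays, and SOD1, PRDX1, PRDX6, GSTM3 and SELENOT in blue on GV adult replicate 1.

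PRDX2 and MT3 were lower at MII than at GV in the 9 arrays with an oocyte profile, in oocytes of both ages, and both passed the threshold when the maturation changes of the ages were averaged. PRDX2 encodes a peroxiredoxin of the cytosol that removes hydrogen peroxide. It read 13.45, 12.77 and 12.48 in MII prepubertal arrays and 11.82, 12.22 and 12.65 in MII adult arrays, against 13.03, 14.59 and 14.80 in GV prepubertal arrays and 10.71, 13.80 and 15.18 in GV adult arrays. With an oocyte profile, the 5 MII arrays lay between 11.82 and 12.77 and the 4 GV arrays between 13.80 and 15.18, without overlap. The 3 arrays without one fell outside this order, at 13.45 (MII prepubertal), 13.03 (GV prepubertal) and 10.71 (GV adult). On the 9 arrays PRDX2 averaged 12.39 ± 0.38 at MII (SD, n = 5) and 14.59 ± 0.58 at GV (SD, n = 4), and it fell by 2.17 log2 units (SE 0.38; adjusted p = 0.0225, limma).

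MT3 is the metallothionein known in mammals from brain, where it binds zinc and copper. It read 5.94, 9.40 and 10.42 in MII prepubertal arrays and 6.62, 9.84 and 10.87 in MII adult arrays, against 7.21, 12.82 and 14.52 in GV prepubertal arrays and 9.72, 12.31 and 14.36 in GV adult arrays. All 5 MII arrays with an oocyte profile (6.62 to 10.87) were below all 4 GV arrays with one (12.31 to 14.52). The prepubertal replicate 1 arrays were low at both stages, at 5.94 (MII) and 7.21 (GV). MT3 averaged 9.43 ± 1.67 at MII (SD, n = 5) and 13.50 ± 1.11 at GV (SD, n = 4) and fell by 3.99 (SE 0.83; adjusted p = 0.0459, limma). Both genes fell by more than the typical probe set, whose median difference in this comparison was -0.32.

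SOD2, the manganese superoxide dismutase of mitochondria, was the third member whose stages did not overlap on the 9 arrays. It read 10.96, 11.91 and 12.29 in MII prepubertal arrays and 12.38, 11.75 and 11.60 in MII adult arrays, against 11.72, 13.62 and 12.79 in GV prepubertal arrays and 11.06, 13.48 and 13.41 in GV adult arrays. The oocyte-profile arrays spanned 11.60 to 12.38 at MII and 12.79 to 13.62 at GV. Its difference of -1.32 (SE 0.41; adjusted p = 0.166) missed the threshold, and over the 12 arrays it was -0.87 (SE 0.80; adjusted p = 0.68). These 3 members made up 5.45% of the 55, against 3.53% of all tested probe sets that lay wholly lower at MII on these arrays. The share wholly higher at MII was 3.82% of all probe sets and none of the members.

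**Figure D2:**
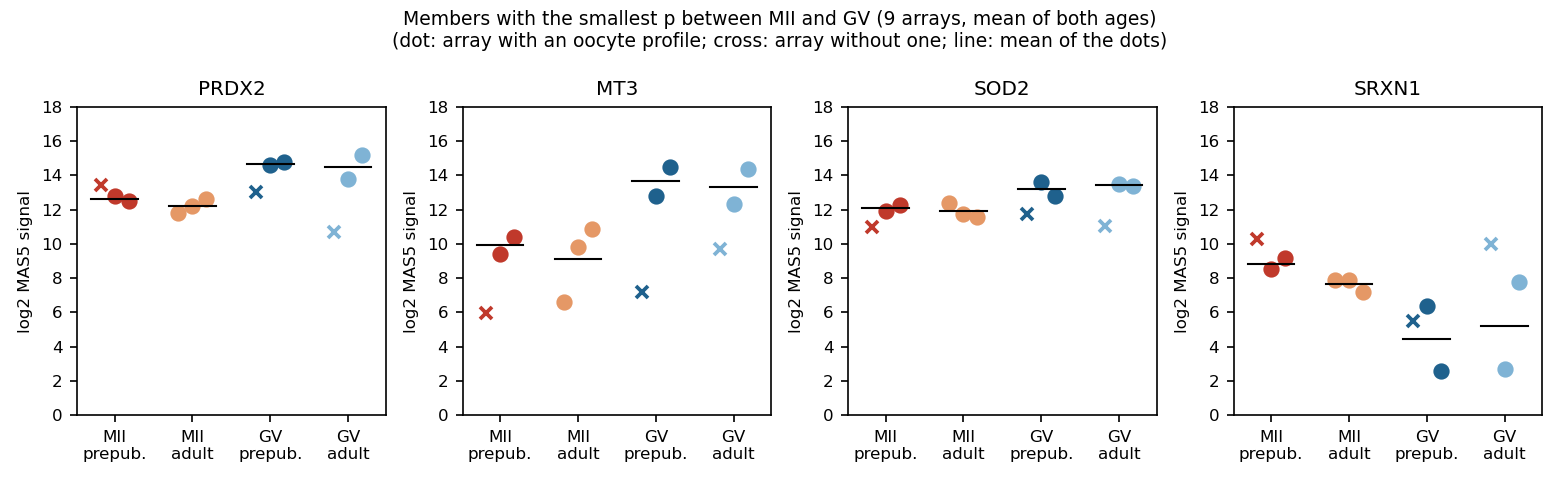
Log2 MAS5 signal of PRDX2, MT3, SOD2 and SRXN1 on each array by group; dots are arrays with an oocyte profile, crosses arrays without one, and lines the mean of the dots. For PRDX2, MT3 and SOD2 every MII dot lies below every GV dot, while the SRXN1 dots overlap.

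The averaged comparison was added after the data were seen. Over the 9 arrays it called 104 probe sets (0.722%) and 2 of 55 members (3.64%), both lower at MII. With all 12 arrays limma called nothing, 0 probe sets (0%) and 0 members, with unadjusted p under 0.05 for 10.7% of probe sets and for 5 members. In that fit PRDX2 read -1.12 (SE 0.92; adjusted p = 0.643) and MT3 -2.98 (SE 1.23; adjusted p = 0.422). With MII adult replicate 3 left out too (8 arrays), whose highest Spearman correlation with any array, 0.553, was the lowest of the 9, both passed among 2.19% of all probe sets, PRDX2 with -2.27 (adjusted p = 0.00633) and MT3 with -4.43 (adjusted p = 0.0108). The calls did not survive every further omission: leaving out 1 more of the 9 arrays at a time, PRDX2 passed in 4 of 9 fits (differences -2.51 to -1.82) and MT3 in 3 of 9 (-4.51 to -3.37). Both lost the call without any 1 of the prepubertal arrays or without GV adult replicate 3 (adjusted p 0.0636 to 0.211), and MT3 also without GV adult replicate 2 (0.0572). Median centring of the 9 arrays gave -1.71 (adjusted p = 0.248) for PRDX2 and -3.54 (adjusted p = 0.169) for MT3. When the 12 arrays were instead weighted by their quality in the fit, 5.93% of probe sets and 3 members passed: MT3 (-3.27, SE 0.96; adjusted p = 0.0495), SRXN1 (3.23, SE 0.93; adjusted p = 0.0465) and SELENOS (-3.26, SE 0.94; adjusted p = 0.0469). SELENOS was kept by the filter only through its higher arrays, and the mean of its 5 MII arrays with an oocyte profile, 3.49, was under the filter, as was that of the 4 GV arrays for SRXN1, 4.83. In the weighted fit PRDX2 read -1.68 (SE 0.56; adjusted p = 0.0754).

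A letter b in the titles of GV replicates 1 and 2, and of no MII array, is partly tied to stage. With it as a covariate over the 9 arrays, PRDX2 read -2.56 (adjusted p = 0.0546) and MT3 -4.93 (adjusted p = 0.0873). The GV replicates 3, without the letter, read 14.80 and 15.18 for PRDX2 and 14.52 and 14.36 for MT3, above all MII arrays. The cumulus list summed to 13.14 to 14.74 log2 units on the 5 MII arrays and 13.40 to 14.21 on the 4 GV arrays; the 3 arrays without an oocyte profile had 18.53 (MII prepubertal), 17.92 (GV prepubertal) and 13.53 (GV adult). The oocyte list summed to 16.93 to 17.63 on the 5 MII arrays and 16.66 to 17.58 on the 4 GV arrays. PTX3, a cumulus matrix gene, was higher at MII. It lay between 5.40 and 8.74 on the 5 MII arrays and between 1.92 and 4.46 on the 4 GV arrays. TNFAIP6, of the same list, went the other way, between 0.29 and 4.28 at MII and between 4.56 and 7.41 at GV. INHA and FST overlapped between the stages on these arrays. The part of cumulus RNA in the result was not tested.

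Within each age the same direction was read for PRDX2 and MT3 over the 9 arrays. In adults PRDX2 differed by -2.26 (SE 0.51; adjusted p = 0.108) and MT3 by -4.22 (SE 1.12; adjusted p = 0.158). In prepubertal donors PRDX2 differed by -2.07 (SE 0.56; adjusted p = 0.56) and MT3 by -3.76 (SE 1.23; adjusted p = 0.642). SOD2 differed by -1.54 (SE 0.55; adjusted p = 0.289) in adults, and by -0.74 (SE 1.14; adjusted p = 0.85) over the 12 arrays. Only over 8 arrays did 1 of these pass, PRDX2 in adults (-2.47, SE 0.48; adjusted p = 0.043), among 0.479% of all probe sets; in prepubertal donors 0.0347% and 0 members passed there. In adults limma called 17 probe sets (0.118%) and 0 members over the 9 arrays, and 0 (0%) of either over the 12. Unadjusted p was under 0.05 for 3 members over the 9 arrays (11.4% of all probe sets) and for 1 over the 12 (7.93%). In prepubertal donors it called 0 (0%) over both, and 3 members (6.99% of all) and 2 members (3.41%) had unadjusted p under 0.05. The difference between the maturation changes had 0 calls (0%) in both fits, and PRDX2 (0.19, SE 0.76) and MT3 (0.46, SE 1.66) gave values well inside their errors over the 9 arrays. GLRX2, a mitochondrial glutaredoxin, was the only member with unadjusted p under 0.05 there (-5.54, SE 2.26; adjusted p = 0.999), against 3.06% of all probe sets, and it read -3.55 (SE 2.33) over the 12. Its means over the 9 arrays were under the filter in GV adult (5.25) and MII prepubertal arrays (5.41). GLRX2 passed the filter through its higher arrays, so this p-value is no support.

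**Figure D3:**
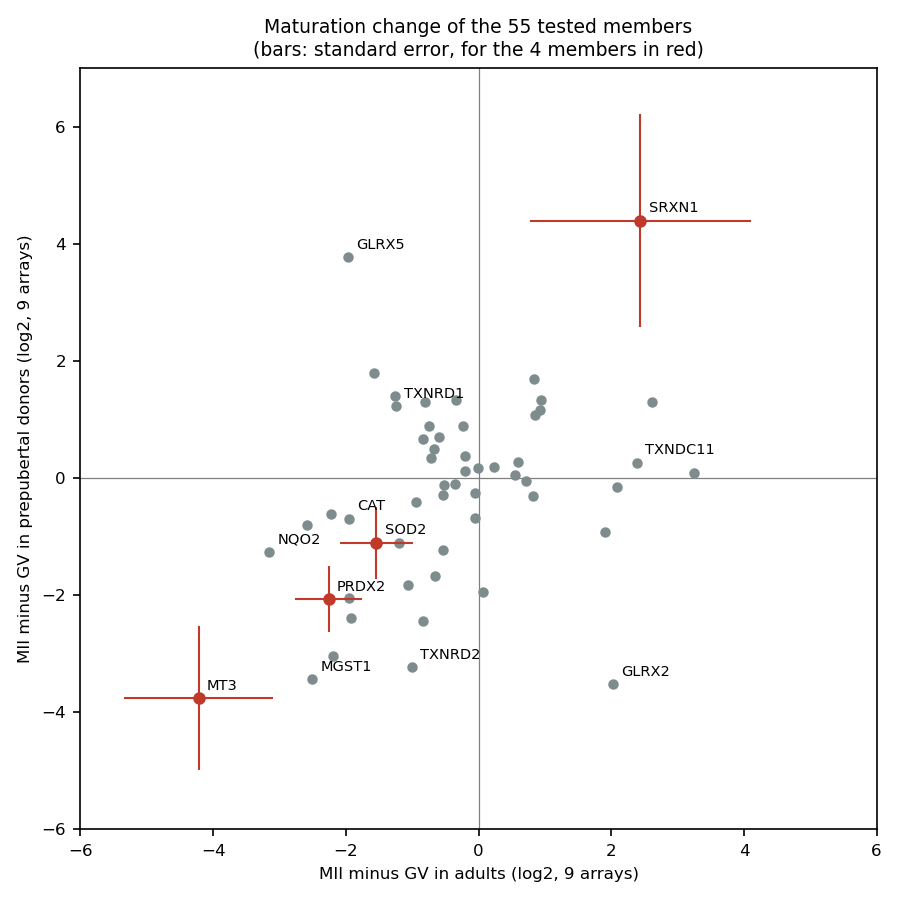
Difference MII minus GV in log2 units over the 9 oocyte-profile arrays for the 55 tested members, in adults (horizontal) and in prepubertal donors (vertical); red points carry standard errors. PRDX2, MT3 and SOD2 are lower at MII and SRXN1 higher at MII at both ages, and GLRX2 and GLRX5 take opposite signs.

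The balance of the members in maturation varied with the age and the arrays. Over the 9 arrays 27 of 62 were higher and 35 lower at MII on the average of both ages, with a median of -0.09, against 41.1% higher and a median of -0.32 among all 24016 probe sets. In prepubertal donors 29 were higher and 33 lower (46.8% higher, against 39.3% of all), and in adults 21 were higher and 41 lower (33.9%, against 48.3%). Over the 12 arrays it was 25 and 37 in prepubertal donors (40.3%, against 34.0%) and 35 and 27 in adults (56.5%, against 37.2%). Of the 55 tested, 11 were higher at both ages, 23 lower at both and 21 opposite over the 9 arrays. Over the 12 arrays these counts were 17, 17 and 21. The same sign at both ages was thus read for 61.8% of members and 62.5% of all tested probe sets over the 9 arrays. Over the 12 it was 61.8% and 65.7%.

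Sulfiredoxin, encoded by SRXN1, restores peroxiredoxins that hydrogen peroxide has overoxidised. Over the 9 and over the 12 arrays it was the only member with a positive averaged maturation value and unadjusted p under 0.05, and it passed the threshold only with array weights, where MGST2 (1.92) and GLRX3 (1.49) also had unadjusted p under 0.05 with a positive value. It read 10.30, 8.52 and 9.17 in MII prepubertal arrays and 7.88, 7.87 and 7.19 in MII adult arrays, against 5.50, 6.35 and 2.57 in GV prepubertal arrays and 10.00, 2.66 and 7.75 in GV adult arrays. All MII arrays lay at 7.19 or higher, whereas GV arrays ranged widely, with 2.57 and 2.66 on single arrays and 10.00 on GV adult replicate 1. Averaged over the ages, SRXN1 differed by 3.42 (SE 1.23; adjusted p = 0.218) over the 9 arrays and by 2.68 (SE 1.17; adjusted p = 0.436) over the 12. In prepubertal donors it differed by 4.39 (SE 1.82; adjusted p = 0.682) and 4.52 (SE 1.66; adjusted p = 0.999). The mean of SRXN1 on the GV arrays with an oocyte profile, 4.83, was under the filter. SRXN1 passed the filter through its higher arrays, so its p-values are no support.

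MGST1, a microsomal glutathione transferase with peroxidase activity, had low values at MII. It read 7.32, 5.01 and 5.32 in MII prepubertal arrays and 4.67, 6.83 and 4.83 in MII adult arrays, against 10.58, 9.26 and 7.95 in GV prepubertal arrays and 6.36, 5.65 and 10.26 in GV adult arrays. The stages overlapped through GV adult replicates 1 and 2. Its averaged difference was -2.98 (SE 1.15; adjusted p = 0.257) over the 9 arrays and -2.68 (SE 1.05; adjusted p = 0.408) over the 12. In prepubertal donors, where the stages did not overlap, it was -3.38 (SE 1.49; adjusted p = 0.999) over the 12. There 6.05% of all tested probe sets and 7.27% of members lay wholly lower at MII. TXNRD2, the thioredoxin reductase of mitochondria, read 2.95, 2.44 and 5.98 (MII prepubertal), 6.33, 5.43 and 3.71 (MII adult), 5.55, 7.61 and 7.29 (GV prepubertal) and 9.47, 7.13 and 5.19 (GV adult). Its averaged difference was -2.57 (SE 1.12; adjusted p = 0.436) over the 12 arrays and -2.12 (SE 1.19; adjusted p = 0.453) over the 9. NQO2, a quinone reductase, had its values not overlapping between the stages in adults, where it read 6.06, 4.41 and 3.91 at MII and 8.95, 6.94 and 8.97 at GV. The prepubertal arrays, at 8.89, 7.78 and 4.97 for MII and 9.00, 5.80 and 9.47 for GV, overlapped. The difference in adults was -3.49 (SE 1.47; adjusted p = 0.595) and the averaged one -2.18 (SE 1.04; adjusted p = 0.466), both over 12 arrays. In adults 7.19% of all tested probe sets and 1.82% of members lay wholly lower at MII over the 12 arrays. The mean of the MII arrays with an oocyte profile was under the filter for MGST1 (5.33), TXNRD2 (4.78) and NQO2 (5.43). These members passed the filter through their higher arrays, so their p-values are no support. TXNL4B, a spliceosome-associated thioredoxin-fold protein, differed by -2.00 (SE 0.92; adjusted p = 0.342) on average over the 9 arrays and -0.79 (SE 1.11; adjusted p = 0.795) over the 12. With median centring these were -1.55 and 0.06, so over the 12 arrays its direction turned.

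Between donor ages no member passed the threshold at either stage, and the members with the smallest p were higher in prepubertal arrays. At GV limma called 0 probe sets (0%) and 0 members over 12 and over 9 arrays. Unadjusted p was under 0.05 for 1 member of 55 over the 12 arrays, against 2.51% of all probe sets, and for 1 over the 9 (4.64%). At MII it also called 0 (0%) of either, with 4 members (2.66% of all probe sets) over the 12 arrays and 2 (2.56%) over the 9. Averaged over the stages, a comparison added after seeing the data, it called 0 (0%), with 5 members (3.99%) over the 12 arrays and 2 (3.61%) over the 9. The 5, SELENOS among them, were all higher in prepubertal arrays. Of all probe sets, 3.14% reached that p in that direction. Over the 12 arrays, prepubertal values lay wholly above adult ones at GV for 3.8% of all tested probe sets and 7.27% of members. Wholly below were 1.88% and 1.82%. At MII 4.78% and 10.9% lay wholly above, and 5.18% and 1.82% wholly below.

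TXNDC17, a thioredoxin-related protein of the cytosol, read 12.05, 9.21 and 11.48 in MII prepubertal arrays, against 7.35, 9.36 and 6.66 in MII adult arrays. At GV it read 12.22, 10.47 and 10.49 in prepubertal arrays, against 6.92, 7.91 and 8.72 in adult arrays, without overlap. Its difference was 3.21 (SE 1.17; adjusted p = 1) at GV and 3.13 (SE 1.17; adjusted p = 1) at MII over the 12 arrays. Over the 9 it was 2.17 (SE 1.27; adjusted p = 1) at GV, 2.56 (SE 1.16; adjusted p = 1) at MII and 2.36 (SE 0.86; adjusted p = 1) on average. SELENOS, a selenoprotein of the endoplasmic reticulum that helps remove misfolded proteins, read 10.68, 4.77 and 5.90 in MII prepubertal arrays, against 1.07, 1.15 and 4.58 in MII adult arrays. In GV arrays it read 8.87, 8.34 and 8.40 in prepubertal and 6.78, 5.56 and 3.36 in adult pools. The ages did not overlap within either stage. Its mean over the 9 arrays, 4.79, and its MII adult mean, 2.27, were under the filter on low values, so it was tested only through the arrays where it was high, and its p-values support nothing. The MII difference was 4.85 over the 12 arrays (SE 1.70; adjusted p = 1) and 3.06 over the 9 (SE 1.72; adjusted p = 1) and, averaged over the stages, 4.08 over the 12 arrays (SE 1.20; adjusted p = 0.998) and 3.49 over the 9 (SE 1.28; adjusted p = 1).

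TXNDC5, a protein disulfide isomerase of the endoplasmic reticulum, separated the ages at MII, with 10.25, 9.73 and 9.55 in prepubertal and 7.09, 7.75 and 4.79 in adult arrays. At GV the ages overlapped, with 10.84, 7.68 and 8.80 for prepubertal pools and 5.70, 7.24 and 8.37 for adult pools. The MII difference was 3.30 (SE 1.27; adjusted p = 1) over the 12 arrays and 3.10 (SE 1.27; adjusted p = 1) over the 9. Another tested TXNDC5 probe set did not separate the ages at MII. It read 8.03, 7.18 and 6.15 in prepubertal and 6.60, 9.32 and 8.50 in adult arrays. GSTA2, an alpha-class glutathione transferase abundant in steroid-making tissues, read 13.57, 8.08 and 7.76 in MII prepubertal arrays and 3.06, 5.44 and 8.08 in MII adult arrays. At GV it read 13.21, 7.99 and 6.50 in prepubertal and 8.23, 6.92 and 5.81 in adult arrays. The MII difference of 4.27 (SE 1.83; adjusted p = 1) contained the 13.57 of MII prepubertal replicate 1, which lacked an oocyte profile. Without that array alone it was 2.39, as it was over the 9 arrays (SE 1.55; adjusted p = 1). The MII adult mean of GSTA2, 5.53, was just under the filter, so these p-values are no support. GLRX2 read 11.29, 8.96 and 8.90 in GV prepubertal arrays, above the 8.66, 6.35 and 4.15 of GV adult arrays. At MII it read 10.33, 6.73 and 4.08 in prepubertal and 7.50, 5.20 and 9.10 in adult arrays, which overlapped. The GV difference was 3.33 (SE 1.65; adjusted p = 1) over the 12 arrays and 3.68 (SE 1.67; adjusted p = 1) over the 9. The GV adult mean of GLRX2 over the 9 arrays, 5.25, was under the filter, so these p-values are no support. GLRX3, a cytosolic glutaredoxin involved in iron handling, differed by 2.02 (SE 0.95; adjusted p = 0.998) on average over the 12 arrays and by 1.40 (SE 0.90; adjusted p = 1) over the 9. Another tested GLRX3 probe set read 4.18, 2.80 and 7.78 in MII prepubertal and 5.99, 5.47 and 7.59 in MII adult arrays. At GV it read 9.28, 9.38 and 6.35 in prepubertal and 11.74, 7.72 and 7.27 in adult arrays. On that probe set the ages overlapped at both stages.

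**Figure D4:**
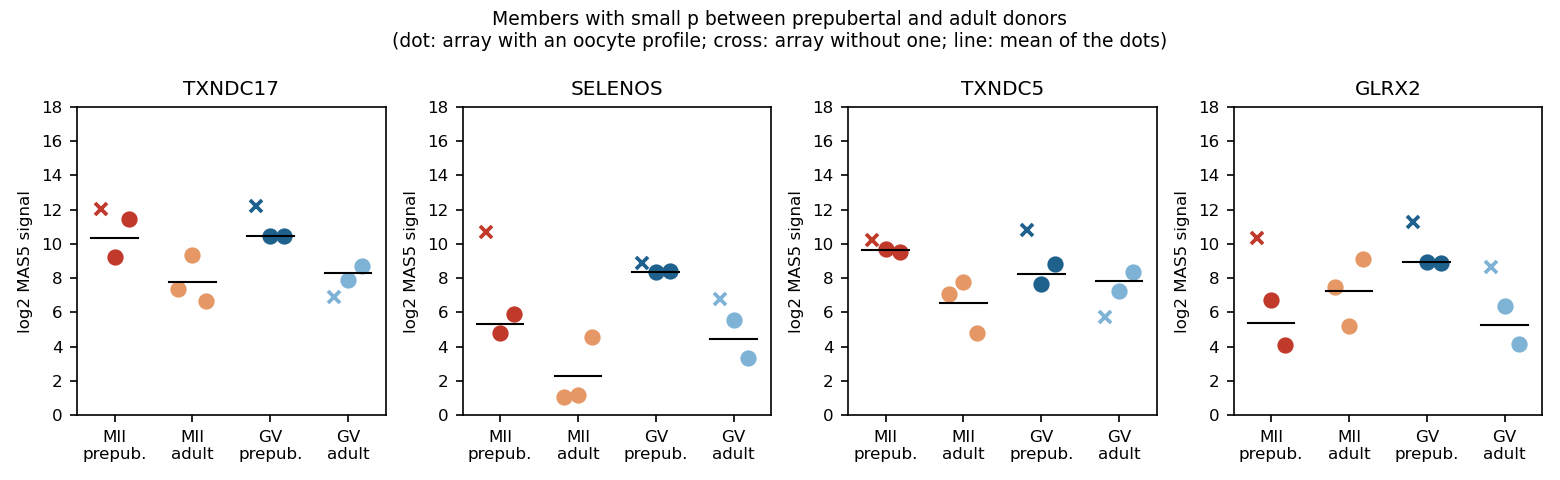
Log2 MAS5 signal of TXNDC17, SELENOS, TXNDC5 and GLRX2 on each array by group; dots are arrays with an oocyte profile, crosses arrays without one, and lines the mean of the dots. Prepubertal dots lie above adult dots at both stages for SELENOS, at GV for TXNDC17 and GLRX2, and at MII for TXNDC5. At GV 16.2% of all tested probe sets and 16.4% of members lay wholly higher in the prepubertal dots. Wholly lower were 11% and 9.09%. At MII 9.24% and 14.5% lay wholly higher, and 9.89% and 3.64% wholly lower.

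The balance of the members between ages changed when the arrays without an oocyte profile were left out. Over 12 arrays 44 of 62 members (71.0%) were higher in prepubertal than in adult arrays at GV, with a median of 0.96, against 50.9% of all probe sets and a median of 0.03. Over the 9 arrays it was 32 of 62 (51.6%) with a median of 0.13, against 57.0% and 0.27. At MII 34 of 62 (54.8%) were higher over the 12 arrays and 35 (56.5%) over the 9, with medians of 0.11 and 0.15. Among all probe sets 47.9% and 46.8% were higher, with medians of -0.08 and -0.1. TXNL1, a thioredoxin-like protein tied to the proteasome, was the only member whose ages did not overlap over both stages of the 9 arrays. It read 10.02, 11.96 and 11.88 in MII prepubertal arrays, against 12.72, 12.08 and 12.31 in MII adult arrays, and 11.70, 11.88 and 11.75 in GV prepubertal arrays, against 8.82, 12.56 and 12.59 in GV adult arrays. The prepubertal arrays were the lower ones by small steps, at most 11.96 where the 5 adult arrays began at 12.08. Such a split was found for 0.403% of all probe sets. Another tested TXNL1 probe set overlapped between the ages on the 9 arrays, at 11.63 to 13.13 in prepubertal and 8.19 to 13.04 in adult arrays. The cumulus list summed to 13.30 to 14.14 on the 4 prepubertal and 13.14 to 14.74 on the 5 adult arrays of the 9.

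The remaining superoxide dismutases and catalase gave no call. CAT, which splits hydrogen peroxide in peroxisomes, ranged from 7.75 to 10.34 on the 5 MII arrays with an oocyte profile and from 10.30 to 11.95 on the 4 GV arrays with one. SOD3, the secreted enzyme, ranged from 2.63 to 8.15 over the 9. Of the 4 genes of this role, 3 had lower values at MII on average over the 9 arrays, with a median of -1.13. Among all probe sets 41.1% were higher at MII in this comparison, with a median of -0.32.

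Among glutathione peroxidases, 4 of 5 had lower values at MII over the 9 arrays, none of the 3 tested past the threshold. Of all probe sets, 41.1% were higher at MII there, with a median of -0.32. GPX4, which reduces lipid peroxides in membranes, read 10.87, 9.38 and 8.82 (MII prepubertal), 9.54, 9.77 and 10.89 (MII adult), 10.66, 10.09 and 11.76 (GV prepubertal) and 6.97, 9.92 and 12.35 (GV adult). In prepubertal oocytes the MII values with an oocyte profile were the lower ones, at 9.38 and 8.82, and in adults the stages overlapped. In prepubertal donors 20.8% of all tested probe sets and 23.6% of members lay wholly lower at MII over the 9 arrays. GPX7, a peroxidase of the endoplasmic reticulum, read 10.42, 6.60 and 9.27 (MII prepubertal), 5.94, 7.59 and 7.97 (MII adult), 10.04, 6.79 and 6.47 (GV prepubertal) and 9.42, 2.74 and 6.38 (GV adult). GPX1, the main enzyme of the cytosol, ranged from 2.80 to 8.23 over the 9 arrays and read 9.57 (MII) and 9.30 (GV) on the prepubertal replicate 1 arrays.

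Several peroxiredoxins varied little over the 9 arrays. PRDX1, a close relative of PRDX2 in the cytosol, had an SD of 0.53 over the 9 arrays, and PRDX4, of the endoplasmic reticulum, of 0.47. PRDX4 read 11.99, 10.03 and 9.92 in MII prepubertal arrays and 9.79, 9.90 and 10.68 in MII adult arrays, against 12.04, 10.40 and 10.91 in GV prepubertal arrays and 7.02, 10.74 and 9.64 in GV adult arrays. Only GV adult replicate 1 fell outside 9.64 to 12.04. PRDX6, a peroxiredoxin that works with glutathione and also acts on phospholipids, read 11.31, 16.17 and 16.38 in MII prepubertal arrays and 16.25, 16.25 and 17.50 in MII adult arrays, against 11.32, 15.97 and 16.26 in GV prepubertal arrays and 5.46, 16.30 and 17.05 in GV adult arrays. On this PRDX6 probe set the 9 oocyte-profile arrays lay between 15.97 and 17.50, and the other 3 at 11.32 or lower. PRDX3 and PRDX5, which serve mitochondria, ranged over the 9 arrays from 10.58 to 13.28 and from 4.61 to 11.28, PRDX5 with its lowest value on MII adult replicate 3.

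In the thioredoxin system no member passed. TXNRD1, the reductase that recharges thioredoxin in the cytosol, read 6.39, 9.59 and 10.84 (MII prepubertal), 8.42, 9.27 and 8.94 (MII adult), 10.38, 9.32 and 8.66 (GV prepubertal) and 7.74, 8.16 and 12.09 (GV adult). GV adult replicate 3 held the highest, 12.09. TXN, thioredoxin itself, ranged from 6.73 to 10.02 over the 9 arrays and is taken up again with the prepubertal replicate 1 arrays. TXN2, the mitochondrial thioredoxin, ranged from 2.13 to 7.81. Of the 8 other thioredoxin-domain genes, 4 had higher and 4 lower averaged values at MII over the 9 arrays. Of all probe sets, 41.1% were higher there. TXNDC11, which supports peroxide-producing dual oxidases in the thyroid, read 7.64, 7.20 and 7.95 (MII prepubertal), 7.76, 8.11 and 10.21 (MII adult), 7.53, 7.94 and 6.69 (GV prepubertal) and 9.83, 6.87 and 5.74 (GV adult). Its adult values with an oocyte profile were higher at MII without overlap, and its prepubertal ones overlapped. In adults 15% of all tested probe sets and 3.64% of members lay wholly higher at MII over the 9 arrays.

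The genes of glutathione synthesis and reduction held steady for GSR and GCLC and scattered for the rest. GCLC, the catalytic subunit of the enzyme that limits glutathione synthesis, read 13.17, 12.10 and 11.52 in MII prepubertal arrays and 11.24, 12.36 and 10.75 in MII adult arrays, against 11.29, 12.12 and 11.61 in GV prepubertal arrays and 5.28, 9.97 and 11.49 in GV adult arrays. Except for 5.28 on GV adult replicate 1 its values lay between 9.97 and 13.17. GCLM, the modifier subunit of that enzyme, read 8.64, 8.17 and 5.94 (MII prepubertal), 8.44, 7.98 and 4.23 (MII adult), 3.39, 7.47 and 5.99 (GV prepubertal) and 4.59, 7.85 and 7.34 (GV adult). The lowest value of each group lay between 3.39 and 5.94. GSR, which reduces oxidised glutathione, read 10.45, 12.27 and 11.67 (MII prepubertal), 11.56, 11.89 and 12.24 (MII adult), 10.09, 11.51 and 10.67 (GV prepubertal) and 8.45, 12.21 and 12.04 (GV adult). Its SD over the 9 arrays was 0.51, and all 3 arrays without an oocyte profile were below them.

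GLRX5, a mitochondrial glutaredoxin of iron-sulfur cluster assembly, had the largest spread of this role. It read 12.51, 10.14 and 11.66 (MII prepubertal), 6.66, 9.91 and 10.39 (MII adult), 14.06, 3.08 and 11.18 (GV prepubertal) and 4.85, 12.81 and 9.10 (GV adult). A single array, GV prepubertal replicate 2 at 3.08, set the low end. GLRX3 read 11.39, 11.95 and 12.09 (MII prepubertal), 10.87, 11.41 and 7.09 (MII adult), 11.16, 9.68 and 11.70 (GV prepubertal) and 6.21, 9.14 and 11.11 (GV adult). GSS, which completes glutathione, ranged from 2.64 to 8.56 over the 9 arrays. Of the 7 genes of this role, 5 had higher averaged values at MII, with a median of 0.33 over the 9 arrays. Of all probe sets, 41.1% were higher there, with a median of -0.32.

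Glutathione transferases held members high on the oocyte-profile arrays and members high on the prepubertal replicate 1 arrays. GSTM3, a mu-class enzyme, read 10.91, 14.29 and 15.03 in MII prepubertal arrays and 14.09, 14.82 and 15.12 in MII adult arrays, against 12.19, 14.90 and 15.03 in GV prepubertal arrays and 5.65, 14.66 and 15.77 in GV adult arrays. The 9 oocyte-profile arrays kept within 14.09 to 15.77, and the other 3 read 12.19 or less. MGST2, a microsomal member of the leukotriene pathway, read 9.24, 10.89 and 11.35 (MII prepubertal), 11.63, 10.71 and 9.86 (MII adult), 8.63, 8.19 and 10.69 (GV prepubertal) and 9.69, 8.66 and 11.14 (GV adult). Its relative MGST3 read 8.80, 8.73 and 6.55 (MII prepubertal), 9.23, 7.71 and 8.24 (MII adult), 9.80, 7.66 and 9.47 (GV prepubertal) and 9.83, 6.54 and 6.42 (GV adult). Neither separated the stages over both ages. GSTK1, a transferase of mitochondria and peroxisomes, read 9.72, 7.57 and 3.88 (MII prepubertal), 8.34, 4.36 and 7.41 (MII adult), 9.04, 3.40 and 7.89 (GV prepubertal) and 6.52, 5.06 and 1.88 (GV adult). GSTT1, of the theta class, read 3.02, 6.35 and 6.83 (MII prepubertal), 6.71, 6.11 and 3.97 (MII adult), 2.96, 5.44 and 5.17 (GV prepubertal) and 9.06, 6.14 and 6.67 (GV adult). The 9.06 of GV adult replicate 1 was its highest value, and the prepubertal replicate 1 arrays were the lowest. GSTA4, which detoxifies lipid aldehydes, ranged from 3.20 to 10.04 over the 9 arrays.

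Among quinone reductases and haem oxygenases, NQO1 ranged from 6.93 to 11.32 and HMOX1, which degrades haem and is a classical stress-induced gene, from 1.22 to 7.48 over the 9 arrays. HMOX2, the constitutive enzyme, was under the filter and ranged from 1.10 to 8.01. The selenoproteins SELENOT, SELENOF, SELENOK, SELENOH and SELENOP had SDs of 0.57, 0.78, 0.64, 0.80 and 0.48 over the 9 arrays. SELENOH, a nuclear redox protein, read 11.27, 12.06 and 13.27 (MII prepubertal), 12.06, 12.34 and 13.51 (MII adult), 11.17, 11.48 and 11.54 (GV prepubertal) and 8.06, 12.32 and 11.10 (GV adult). SELENOF, which works with a folding sensor of the endoplasmic reticulum, read 11.51, 12.12 and 12.61 (MII prepubertal), 12.38, 11.67 and 13.50 (MII adult), 13.03, 11.15 and 13.05 (GV prepubertal) and 7.41, 11.35 and 12.51 (GV adult). SELENOP, the secreted selenium carrier, read 8.89, 11.58 and 12.11 (MII prepubertal), 11.71, 11.71 and 13.09 (MII adult), 10.11, 12.12 and 12.09 (GV prepubertal) and 11.27, 11.88 and 12.58 (GV adult). Its lowest values were those of the prepubertal replicate 1 arrays, 8.89 and 10.11. Of the methionine sulfoxide reductases, which repair oxidised methionine, MSRA ranged from 0.91 to 7.77 and MSRB2 from 1.39 to 8.76 over the 9 arrays.

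The prepubertal replicate 1 arrays, which carried the cumulus and theca signals given above, held the highest values of 14 members. On both of these arrays 14 of 62 members (22.6%) were above all 9 oocyte-profile arrays, against 12.2% of all probe sets, and 7 (11.3%) were below all 9, against 5.68%. These are descriptions of 2 arrays, chosen for their marker genes, without a test. MT1A, a metallothionein induced by zinc, copper and glucocorticoids, read 12.82, 2.15 and 5.07 in MII prepubertal arrays and 0.71, 2.66 and 6.76 in MII adult arrays, against 14.75, 8.28 and 3.71 in GV prepubertal arrays and 10.06, 5.88 and 4.70 in GV adult arrays. On the 9 arrays its mean was 4.44 ± 2.38 (SD, n = 9) and its highest value 8.28, whereas these 2 arrays held 12.82 (MII) and 14.75 (GV). MT2A, the other widely expressed metallothionein, was under the filter on low values and read 9.13, 5.16 and 2.20 in MII prepubertal arrays and 1.21, 3.15 and 4.98 in MII adult arrays, against 10.07, 5.28 and 0.71 in GV prepubertal arrays and 9.83, 4.10 and 6.83 in GV adult arrays. GV adult replicate 1 was also high for both, at 10.06 and 9.83.

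GSTA2 (13.57 at MII and 13.21 at GV) exceeded its range of 3.06 to 8.08 on the 9 arrays, and TXN (13.61 and 15.01) exceeded 6.73 to 10.02. GSTO1, an omega-class transferase that reduces dehydroascorbate, read 9.73, 6.57 and 0.07 (MII prepubertal), 6.61, 0.28 and 8.45 (MII adult), 11.64, 3.40 and 1.48 (GV prepubertal) and 8.73, 2.52 and 9.18 (GV adult). MSRA read 10.16, 5.65 and 0.91 (MII prepubertal), 5.53, 5.82 and 2.50 (MII adult), 10.53, 7.77 and 3.68 (GV prepubertal) and 7.15, 4.42 and 6.49 (GV adult). The others of the 14 were GLRX2, GPX1, GPX7, GSTK1, PRDX4, SELENOS, TXNDC5 and TXNDC17. The 7 below all 9 arrays were PRDX6, GSTM3, GSTT1, SELENOP, GSR, TXNL1 and PRDX1. MT3, at 5.94 and 7.21, lay on average -4.67 from the mean of the 9 arrays, but 1 of the 2 values was above their lowest, 6.62. Of the 6 members with unadjusted p under 0.05 between the ages over 12 or 9 arrays, 5 (SELENOS, TXNDC17, TXNDC5, GSTA2 and GLRX2) are among the 14. The other, GLRX3, read 11.39 (MII) and 11.16 (GV) there, under its highest value of 12.09 on the 9. The part of somatic RNA in those age differences over 12 arrays was not tested. High values on the prepubertal replicate 1 arrays enter the prepubertal means over the 12 arrays for any gene. The same overlap over all probe sets is not given here, so it is no result about the members.

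**Figure D5:**
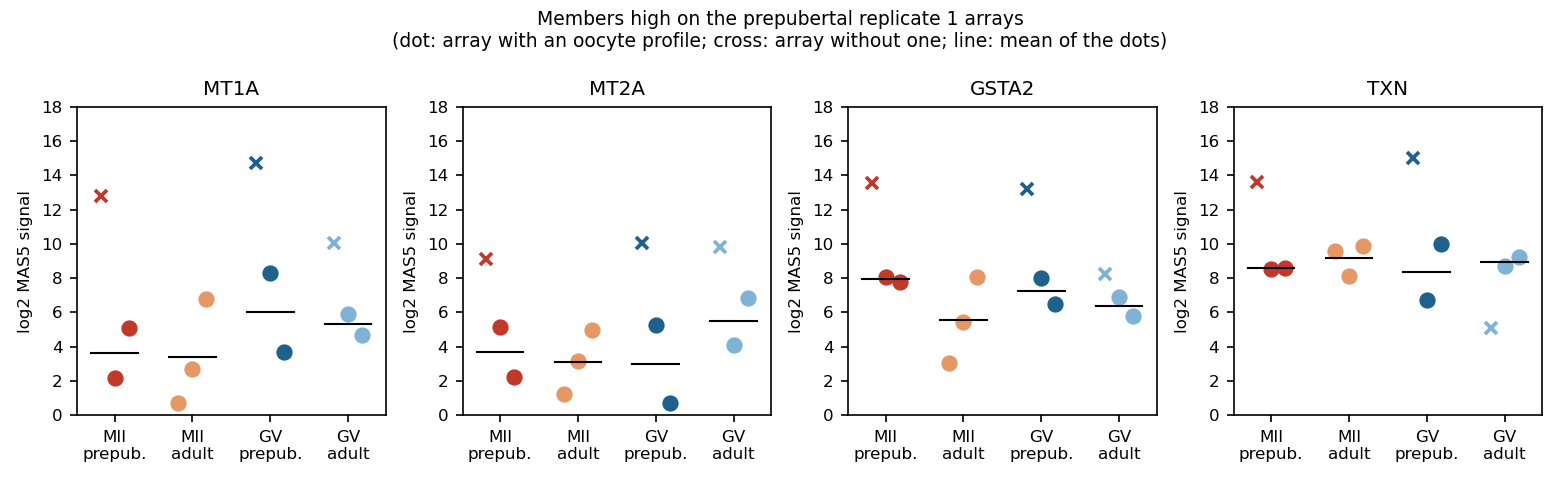
Log2 MAS5 signal of MT1A, MT2A, GSTA2 and TXN on each array by group; dots are arrays with an oocyte profile, crosses arrays without one, and lines the mean of the dots. The prepubertal crosses lie between 9.13 and 15.01, above all dots of the same gene.

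GV adult replicate 1 differed in another way. Across probe sets it resembled none of the others closely, with Spearman coefficients of 0.138 at most. Each other array reached between 0.553 and 0.852 with its nearest match. The median signal of GV adult replicate 1, 8.30, was also the highest of the 12 arrays. The member values below thus come from an array whose whole profile stood apart, and the cause was not tested. Only 26 of 62 members (41.9%) were above their mean of the 9 arrays, whereas 73.2% of all probe sets were, and 25 members (40.3%) were below all 9 arrays, against 11.4% of all. Its median difference from the 9 arrays was -1.34 for members and 2.00 for all probe sets. PRDX6 (5.46), GSTM3 (5.65), PRDX1 (5.47), SELENOT (5.42), SOD1 (5.45) and GCLC (5.28) differed from their means of the 9 arrays by -11.00 (PRDX6) to -6.19 (GCLC). As 1 of 3 GV adult arrays it enters the adult maturation and the GV age comparisons over 12 arrays.

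Probe sets of 1 gene mostly did not agree. Of 20 further probe sets of the 12 genes, 4 had a Pearson correlation above 0.5 with the used one over the 12 arrays. The other 16 did not, and the values ran from -0.65 to 0.88. Over the 9 arrays the correlation was -0.16 for TXNL1, -0.26 for TXNDC5 and -0.58 for PRDX3. PRDX6 had 3 of the 20. Against the 9 arrays the prepubertal replicate 1 arrays averaged -5.15 on the PRDX6 probe set used, and 1.27, 4.95 and -2.19 on the others. The used one is of a type that may also bind related transcripts, so its values are uncertain. For GSTA2 the used probe set and 4 others read 6.77, 2.02, 10.17, 8.82 and 7.61 in this respect, and alpha-class transferases are near-identical copies that probes can share. For NQO2 the averaged maturation value over the 9 arrays was -2.21 on the used probe set and -0.06 and 0.51 on the others, and for GLRX3 0.50 and -1.86. PRDX2, MT3, SOD2, SRXN1, MGST1, MT1A and MT2A had 1 probe set each.

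Genes that supply and regulate these systems were looked at in a list of 86, among them the NRF2 pathway, NADPH supply, amino acid and metal transporters and selenocysteine machinery, of which 66 had a probe set and 55 were tested. Over the 9 arrays 27 had higher and 28 lower averaged values at MII, with a median of -0.02. Of all probe sets, 41.1% were higher there, with a median of -0.32. In the list 1 gene passed the threshold, against 0.722% of all tested probe sets. That gene, SLC1A5, a transporter of glutamine and other neutral amino acids, read 9.36, 14.72 and 14.54 in MII prepubertal arrays and 14.24, 13.64 and 12.86 in MII adult arrays, against 9.76, 15.83 and 15.60 in GV prepubertal arrays and 7.28, 15.78 and 14.99 in GV adult arrays. It fell by 1.44 (SE 0.31; adjusted p = 0.0488, limma), with all 5 MII arrays (12.86 to 14.72) below all 4 GV arrays (14.99 to 15.83) of the 9. The call did not hold elsewhere: over 12 arrays its value was 0.02 (SE 1.46; adjusted p = 0.996), with 9.36, 9.76 and 7.28 on the 3 arrays without an oocyte profile, and it passed in 2 of 9 fits that left out 1 more of the 9 arrays, those without MII adult replicate 1 or 3. Over 12 arrays none of the 55 passed in any comparison. SESN2, a stress-induced sestrin, read 8.13, 14.03 and 14.72 (MII prepubertal), 13.78, 13.84 and 12.88 (MII adult), 9.69, 10.11 and 11.33 (GV prepubertal) and 9.65, 13.81 and 9.81 (GV adult). Its averaged difference was 2.67 (SE 0.66; adjusted p = 0.0805) over the 9 arrays and 2.16 (SE 1.09; adjusted p = 0.479) over the 12. ABCC1, an export pump for glutathione conjugates, read 3.98, 8.57 and 8.62 (MII prepubertal), 7.49, 9.40 and 7.12 (MII adult), 4.91, 3.76 and 1.91 (GV prepubertal) and 9.27, 7.58 and 7.66 (GV adult). It differed by 5.76 with maturation in prepubertal donors (SE 1.46; adjusted p = 0.544) and by -4.79 between ages at GV (SE 1.46; adjusted p = 0.997) over the 9 arrays, and by 3.53 (SE 1.54; adjusted p = 0.999) and -4.65 (SE 1.54; adjusted p = 1) over the 12. GGCT, which degrades gamma-glutamyl peptides, differed by -1.76 between ages at GV over the 9 arrays (SE 0.66; adjusted p = 0.997) and by -0.82 over the 12 (SE 1.67; adjusted p = 1). IDH2, a source of mitochondrial NADPH, differed by 4.14 between ages at MII (SE 1.51; adjusted p = 1) over the 12 arrays, with 10.91 on MII prepubertal replicate 1, and by 2.82 (SE 1.36; adjusted p = 1) over the 9. Its MII adult values, 4.96, 3.80 and 3.66, were also all under the filter value, so these p-values are no support.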

How the data were processed

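Per the submitters' processing notes the deposited values are MAS5 signals, and the values show that they are on a log2 scale; the authors' MAS5 version and genome build are not given in the sources used here. The linear values of each array, without the lowest and highest 2%, averaged 500, so no further scaling was applied. Of 24128 probe sets, 112 controls were left out, and 14409 with a mean over 12 arrays above the 40th percentile were tested. Gene symbols came from the platform annotation, updated through Entrez identifiers, 99.8% of which matched. Probe sets were not marked as present or absent in what was used, so low signals carry no detection call.

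A model with 1 mean per group was fitted in limma 3.58.1 (R 4.3.3) to 12 arrays (8 residual degrees of freedom) with an intensity trend. Adjusted p-values follow Benjamini and Hochberg, taken over all 14409, with a threshold of 0.05; the number of arrays limits precision. The same fit was run over the 9 arrays whose oocyte list median lay 2 or more log2 units above the array median (5 residual degrees of freedom), and over 8 arrays, also without MII adult replicate 3 (4). All tests were two-sided, and the fit was tested on simulated data. P-values measure the spread between pools, which may be partly technical.

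The members, roles, marker and supply lists, and the use of 9 and 8 arrays, were chosen with earlier results of these data known. The 2 averaged comparisons were added after seeing the values. Values on every array are given for members past the threshold in any fit, for the 3 higher and 3 lower members of smallest unadjusted p per comparison, for metallothioneins, for the 5 in each direction farthest from the 9 arrays on the prepubertal replicate 1 arrays, and for the 5 with the smallest SD. Supply genes were named where past the threshold or among the smallest p of a comparison. Alternatives were other scalings, filters, a pseudocount of 32, array weights, the compared groups alone, a replicate block, the title letter b, no intensity trend, averaged probe sets and the omission of each array.

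Same-numbered prepubertal GV and MII arrays correlated in their deviations from the group means at 0.609, 0.149 and 0.306, all over 0.1. These arrays were taken as pairs from the data, not the labels, but only in the alternative fit with a replicate block. The main fits held group means alone and no pair term. The maturation p-values in the Results thus ignore the pairing. Both number 1 arrays lacked an oocyte profile. In the other comparisons at least 1 pair was under 0.1.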

Additional observations from a re-analysis of the deposited data

How the results depend on the processing

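Of 815 alternative values for 29 named differences, 791 kept their sign and 24 did not. SOD2 in adults read 0.04 and TXNL4B, averaged over ages, 0.06 with median centring of the 12 arrays. The other reversals were of SLC1A5, averaged over ages, whose value over 12 arrays was 0.02: it read -0.02 with a pseudocount of 32, -0.54 with array weights, -2.07 with the title letter b, -1.44 over 9 arrays, -1.26 over 8, and over the 9 arrays -1.23 with quantile normalization, -0.99 with median centring and -1.19 with the letter b. Leaving out 1 more of the 9 arrays gave it -1.39, -1.50, -1.25 and -1.64 (GV arrays) and -1.49, -1.40, -1.61, -1.46 and -1.26 (MII arrays); leaving out each of the 12 gave -1.33 to 0.90. The causes were not tested.

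Counts over 12 arrays were 0 in every comparison. With array weights probe sets called were 1 at GV and 1 at MII between ages, 96 (adults), 5 (prepubertal donors) and 855 (averaged) for maturation, the last with 3 members (MT3, SRXN1 and SELENOS). For maturation in adults 17 passed over 9 arrays, 69 over 8 with 1 member, and 16 with quantile normalization of the 9; in prepubertal donors 5 passed over 8. Averaged, it was 104 with 2 members over 9 arrays, 315 with 2 over 8, 145 with 2 under quantile normalization of the 9 (PRDX2 -2.08, adjusted p = 0.0133; MT3 -4.08, adjusted p = 0.0304) and 2 with the letter b over the 9. Leaving out each of the 12 arrays gave 0 to 9 averaged calls, 9 without MII prepubertal replicate 1, and 0 in the other comparisons, with 0 members.

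With the replicate number as a block, 0 members passed in every comparison; probe sets called were 7 for maturation in adults, 11 averaged and 0 in prepubertal donors, the paired comparison, where PRDX2 read -1.24 (adjusted p = 0.433) and MT3 -2.93 (adjusted p = 0.315).

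The median member difference at GV between ages, 0.96 over 12 arrays, was 0.13 over 9 and over 8, 0.05 and -0.19 with quantile normalization and median centring of the 9, and 0.09 to 1.22 when 1 array was left out. For maturation in adults it was 0.15, and 0.84 (quantile), 0.94 (centred), -0.53 (9 arrays) and -0.53 to 0.47 (1 array left out). In prepubertal donors, at -0.29, it was 0.62 (centred), 0.69 (9 arrays, centred) and -0.69 to 0.04. The difference between the changes, -0.42, was 0.31 (8 arrays), 0.90 (9 arrays, centred) and -0.70 to 0.15; the averaged change, -0.09, was 0.76 (centred) and -0.30 to 0.28. At MII between ages and averaged over stages, leaving out 1 array gave 0.15 to 0.44 and 0.29 to 0.82. With 3 pools a group, 5 or 8 residual degrees of freedom and a median residual SD of 1.86 log2 units over 12 arrays and 1.50 over 9, small differences were not detectable.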
